A study of Saccharomyces cerevisiae with 27 samples.

Results

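The first hour after a shift from 30 to 37 °C was compared between a budding yeast strain with an editing-defective alanyl-tRNA synthetase and its wild type. The comparison used every library of the WT and C719A strains at 0 h and 1 h, which is 12 of the 27 libraries and 4 of the 9 groups of the series. For each gene the quantity is an interaction, the log2 fold change from 0 h to 1 h in C719A minus the same fold change in WT. A positive interaction means that the gene rose more, or fell less, in C719A.

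The WT strain expressed wild-type ALA1, the gene for alanyl-tRNA synthetase, and the C719A strain expressed ALA1 carrying the C719A mutation. According to the study the ALA1 copy sat on a single-copy plasmid in a haploid ala1Δ derivative of BY4741, so that WT and mutant both lacked the chromosomal gene and both carried a plasmid. The methods name the LEU2 plasmid pRS315 for the mutant. The study also lists a pRS315 with wild-type ALA1, but its methods do not name the plasmid of the WT strain. The 0 h cultures were taken at 30 °C before the shift and the 1 h cultures after 1 h at 37 °C, with 3 libraries (A, B and C) in each group. The sources differ on the culture before the shift, which the labels give as overnight growth and the methods as log phase, and how far the 0 h levels depend on it was not tested. Cells were in YPD, a rich glucose medium, and poly(A) RNA was sequenced. One strain stands for each genotype, so the mutation, the plasmid's level and any other difference between these strains cannot be told apart. The other 15 libraries were WT and C719A at 2 h and the G906D strain, whose AlaRS mutation lies outside the editing site, at 0, 1 and 2 h. The first hour of G906D served as a second comparison.

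Alanyl-tRNA synthetase joins alanine to its tRNA and, at a separate editing site, removes serine that it has attached by mistake. C719A disables that site, so serine can enter proteins at alanine codons. Heat raises the burden of misfolded protein in yeast. The transcription factor Hsf1 then drives chaperone genes through heat shock elements, Msn2 and Msn4 drive a general stress programme that includes the storage carbohydrates trehalose and glycogen, and genes for making ribosomes are turned down.

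The 12 libraries held 14718035 to 23057641 counts each. Cytosolic ribosomal protein genes took 13.1 to 18.4% of counts in WT and 20.03 to 22.9% in C719A at 0 h, and 6.24 to 8.82% in WT and 8.22 to 10.7% in C719A at 1 h. WT 0 h replicate B stood apart from the other libraries of its group, with a score on the component that separates the strains of 11.2 against 26.9 and 32.0, and results that rest on it are given without it. ALA1 was at 2581 to 3146 CPM (counts scaled to library size with TMM factors) in WT and 4820 to 5806 CPM in C719A at 0 h, and LEU2, the marker of pRS315, at 598 to 770 and 2518 to 4248 CPM. The ALA1 interaction was 0.40 (edgeR, adjusted p = 0.178) and was called, at 0.58, only without WT 1 h replicate B. That of LEU2 was -0.67 (adjusted p = 0.0744), and it was called without C719A 0 h replicate B (-0.86) or WT 1 h replicate C (-0.85). URA3 and MET17, deleted in BY4741, were at 0 in all 12 libraries, and so was LYS2, which BY4741 carries. HIS3, a further strain marker, was not at 0, with 535 to 1567 counts over the 12 libraries. BY4741 is a MATa strain, but the MATalpha gene MF(ALPHA)1 was at 530 to 4840 FPKM (fragments scaled by gene length and library size) against 23.9 to 424 FPKM for the MATa gene MFA1, in both strains. LYS2, MF(ALPHA)1 and MFA1 therefore go against a MATa LYS2 background, and go against it alike in WT and C719A.

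Of 6386 genes tested, 2012 (31.5%) had a first-hour response that differed between C719A and WT at an adjusted p under 0.05 (edgeR's quasi-likelihood test, Benjamini-Hochberg adjustment over all genes tested). The interaction was positive for 977 genes (15.3%) and negative for 1035 (16.2%), and it passed 2-fold for 244. Its median over all genes was -0.01 on the log2 scale. In WT 3898 genes changed in the first hour (61.0%), of which 1970 rose (30.8%) and 1928 fell (30.2%). In C719A 4212 changed (66.0%), of which 2168 rose (33.9%) and 2044 fell (32.0%). The split of the strains' own responses depended on scaling. With library size alone in place of TMM the median response of all genes shifted by 0.29 in WT and 0.27 in C719A, and 74.6% and 70.9% of calls were rises, against 50.5% and 51.5%. The median interaction shifted by only -0.02 and 43.1% of its calls were positive, against 48.6%.

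Most differing genes did not move in opposite directions. Of the 977 positive interactions, 392 were genes that rose in C719A without a called change in WT, 247 fell in WT without a called change in C719A, 128 rose in both strains, 93 fell in both and 99 fell in WT but rose in C719A. Of the 1035 negative ones, 322 fell in C719A without a called change in WT, 291 rose in WT without a called change in C719A, 193 fell in both, 122 rose in both and 98 rose in WT but fell in C719A. Leaving out 1 library at a time gave 1473 to 2432 differing genes, the highest without WT 0 h replicate B, and 1239 were called in all 12 of those fits.

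**Figure D1:**
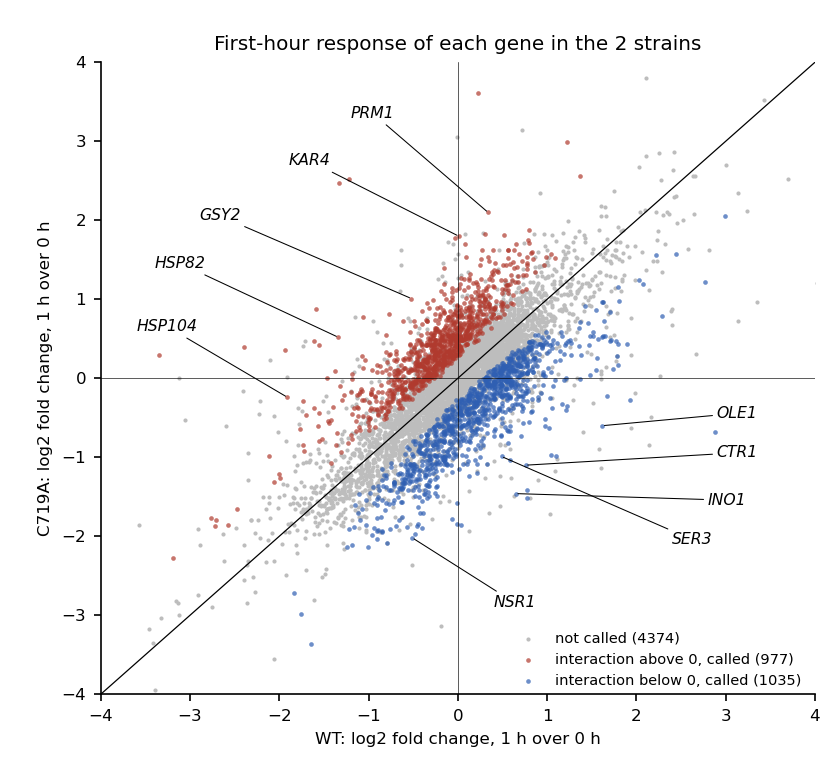
Log2 fold change from 0 h to 1 h in WT (x axis) and in C719A (y axis) for each gene tested, with 1 point per gene, the line of equal response and 10 genes outside the axes of ±4. The 977 genes with a called positive interaction lie above the line and the 1035 with a called negative one below it, and HSP82, GSY2, OLE1, INO1, CTR1 and SER3 lie in quadrants where the strains moved in opposite directions.

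In the list of small heat shock proteins and disaggregases, chaperones that act on aggregated protein, 4 of 7 genes fell and 2 rose in the first hour in WT, and 1 fell and 2 rose in C719A. Over all genes 30.2% fell in WT and 32.0% in C719A. The list had 7 members, of which 4 were called with a positive interaction and none with a negative one, with a median interaction of 1.30. The median response of the list was -1.38 in WT and 0.09 in C719A. The difference stood at 0 h, where the list's median was 1.46 lower in C719A on the log2 scale, and at 1 h it was 0.05 lower.

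The upstream regions of some heat-induced chaperone genes are shown because they hold the heat shock element bound by Hsf1. It was searched on both strands as GAANNTTC or TTCNNGAA, and matches are in capitals. Each window is read 5′ to 3′ on the gene's strand from the RefSeq R64 genome, with its last base at least 90 bases before the coding start. HSP104 and SIS1, described below, held no match in the 250 bases before the coding start and are not shown.
HSP82, chrXVI:98816-98875, minus strand: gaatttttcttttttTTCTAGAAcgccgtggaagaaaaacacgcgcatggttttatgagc
HSP42, chrIV:806371-806430, plus strand: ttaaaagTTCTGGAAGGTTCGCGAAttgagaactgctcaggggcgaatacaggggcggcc
HSP78, chrIV:974434-974493, minus strand: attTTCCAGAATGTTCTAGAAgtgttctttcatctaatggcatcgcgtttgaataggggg
SSA1, chrI:141539-141598, minus strand: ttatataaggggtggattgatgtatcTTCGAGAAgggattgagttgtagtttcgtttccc
STI1, chrXV:380803-380862, plus strand: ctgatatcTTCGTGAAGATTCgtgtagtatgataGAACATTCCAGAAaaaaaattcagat

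In the 250 bases before the coding start, 66.7% of the 18 chaperone genes with a called positive interaction held a match, against 19.5% of the 5831 genes tested that had such a window. Among all chaperone genes of the 5 lists, 12 of 26 with a match had a called positive interaction and 6 of 35 without one did. Outside the chaperone lists 15.8% of the 1110 genes with a match were called positive and 15.9% negative, close to the 15.3% and 16.2% of all genes. A match is a description of the letters only.

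HSP104 (YLL026W), the disaggregase that pulls proteins out of aggregates, was at 4688, 5074 and 6117 CPM in WT at 0 h and at 1841, 1162 and 1234 CPM at 1 h. In C719A it was at 1507, 1572 and 1556 CPM at 0 h and 1107, 1642 and 1182 CPM at 1 h. The 3 WT libraries at 0 h were the high ones, and all 9 others overlapped. Its interaction was 1.67 ± 0.24 (SE, adjusted p = 3.65e-05, edgeR), with a fall of 1.91 in WT and a change of -0.24 (adjusted p = 0.222) in C719A.

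HSP42, a small heat shock protein that gathers misfolded proteins, was at 1588, 2535 and 2179 CPM in WT at 0 h and 1015, 658 and 752 CPM at 1 h. In C719A its levels were 735, 823 and 728 CPM at 0 h and 686, 1001 and 745 CPM at 1 h. Its interaction was 1.47 ± 0.24 (adjusted p = 0.000143). HSP78, the mitochondrial relative of HSP104, gave 1.46 ± 0.28 (adjusted p = 0.000558), and was at 1697, 2839 and 2704 CPM in WT at 0 h against 462 to 531 CPM in C719A. Again only the WT libraries at 0 h were high.

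HSP26, a small heat shock protein, reached its interaction of 1.30 ± 0.27 (adjusted p = 0.0011) in another way. It was at 267, 235 and 502 CPM in WT at 0 h and 515, 417 and 504 CPM at 1 h, and it rose from 149, 172 and 132 CPM to 496, 597 and 497 CPM in C719A. The strains overlapped at 1 h and not at 0 h. HSP31, BTN2 and CUR1, the remaining members, had interactions of -0.07, 0.39 and 0.33, none called. These values moved with single libraries, to -0.28, 0.06 and 0.02 without WT 0 h replicate B. BTN2 was called without WT 1 h replicate A, at 0.95, and CUR1 without WT 0 h replicate A, at 0.59, and HSP31 was positive, at 0.03 and 0.16 and not called, without C719A 0 h replicate B or WT 0 h replicate A.

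The Hsp90 and Hsp70 lists held both called and uncalled members. Of 13 genes for Hsp90 and its cochaperones 5 were called positive and none negative, with a median interaction of 0.20. HSP82 (YPL240C), the heat-inducible Hsp90, was called with opposite directions in the strains. It was at 1530, 1805 and 2031 CPM in WT at 0 h and 856, 622 and 644 CPM at 1 h, and at 603, 643 and 636 CPM in C719A at 0 h and 740, 1177 and 781 CPM at 1 h. WT thus fell while C719A rose, and the strains overlapped at 1 h. The interaction was 1.86 ± 0.21 (adjusted p = 2.27e-06), and 1.61 to 2.02 with 1 library left out. HSC82, its constitutive copy, gave 0.75 ± 0.20 (adjusted p = 0.00618), and reads of these near-identical genes could be split between them. STI1, which links Hsp70 to Hsp90, gave 1.07 ± 0.17 (adjusted p = 9.95e-05). The Hsp90 count was 3 without C719A 1 h replicate B, without WT 0 h replicate C or without WT 1 h replicate A.

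Of 18 genes for Hsp70, Hsp110 and their exchange factors 6 were called positive (33.3%) and 3 negative (16.7%), with a median of 0.17. Over all genes 15.3% were called positive and 16.2% negative, so the negative share is close to that of all genes. The major cytosolic Hsp70 gene SSA1 was at 3040, 3689 and 3889 CPM in WT at 0 h and 1572, 1370 and 1302 CPM at 1 h, and in C719A at 1570, 1569 and 1611 CPM and 1301, 1772 and 1357 CPM. Its interaction was 1.22 ± 0.20 (adjusted p = 0.00012), and that of its near copy SSA2 0.97 ± 0.22 (adjusted p = 0.00259). SSA4, the strictly inducible Hsp70, fell in both strains and gave 1.01 ± 0.33 (adjusted p = 0.0227), but 0.66 (adjusted p = 0.0854) without WT 0 h replicate B, the library in which it was highest at 2221 CPM. The call was also lost, at 0.84 to 0.96, without C719A 1 h replicate B, WT 0 h replicate C, WT 1 h replicate B or WT 1 h replicate C. The 3 negative members were SSE1, MGE1 and SIL1, exchange factors of Hsp70s in the cytosol, mitochondrion and endoplasmic reticulum, and SSE1 was called in only 4 of the 12 fits that left out 1 library. The count of 6 was 3 without C719A 1 h replicate B, WT 1 h replicate B or WT 1 h replicate C, and the 3 negative became 5 without WT 1 h replicate C. With the 12 libraries alone the counts were 3 and 1.

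Among 13 Hsp40 genes 3 were called positive (23.1%, against 15.3% of all genes) and 1 negative (7.69%, against 16.2%). Their median interaction was -0.01, with 7 values below 0 and 6 above. SIS1, an essential Hsp70 partner, had the highest value, at 1.24 ± 0.26 (adjusted p = 0.000991). SIS1 was at 949, 1654 and 1457 CPM in WT at 0 h and 547 to 597 CPM in C719A, and at 1 h at 332 to 611 and 381 to 558 CPM. The Hsp40 count was 1 without WT 0 h replicate C. Of 10 chaperonin genes 5 were called negative and none positive, with a median of -0.30. HSP60, which folds imported proteins in the mitochondrial matrix, gave -0.50 ± 0.15 (adjusted p = 0.0149), and TCP1, a subunit of the cytosolic chaperonin, -0.42 ± 0.12 (adjusted p = 0.00923). The chaperonin count was 3 without C719A 0 h replicate A or without WT 1 h replicate B, and 1 with the 12 libraries fitted alone.

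**Figure D2:**
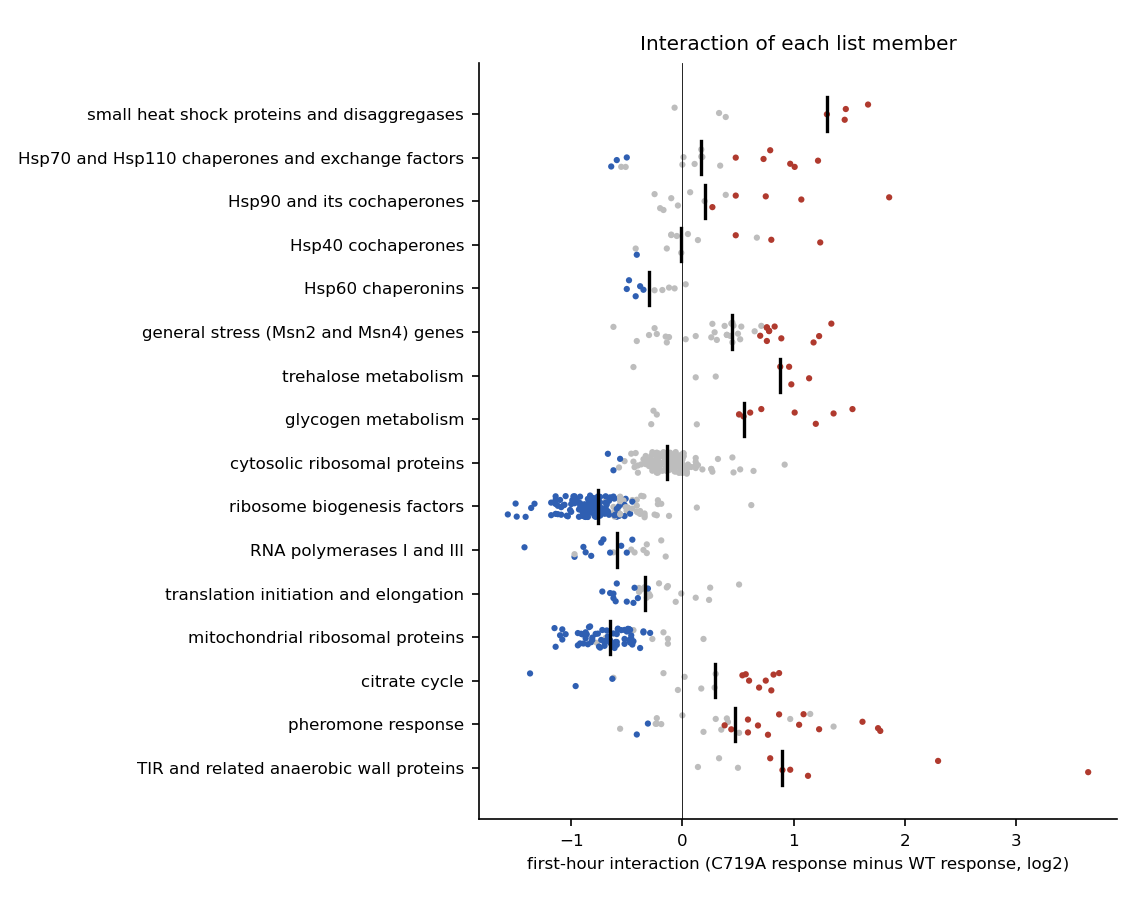
First-hour interaction (x axis, log2, C719A response minus WT response) of each tested member of 16 gene lists, with 1 point per gene, called positive genes in red, called negative genes in blue, others in grey, and the list median as a black bar. Ribosome biogenesis and mitochondrial ribosomal protein genes lie almost wholly below 0, while the medians of the small heat shock, trehalose and glycogen lists are 1.30, 0.88 and 0.55.

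Storage carbohydrate genes rose in C719A for 7 of 7 trehalose and 10 of 13 glycogen genes, and in WT for 3 and 7. Of 7 trehalose genes 4 were called positive and none negative, with a median interaction of 0.88, and the list's median was 0.66 lower in C719A at 0 h and 0.02 higher at 1 h. The 4 were the whole trehalose synthase complex. TSL1, a regulatory subunit, was at 1858, 2275 and 2601 CPM in WT at 0 h and 2016, 2305 and 2447 CPM at 1 h. In C719A it rose from 880, 1387 and 976 CPM to 2117, 2890 and 2156 CPM, so that it was lower than WT in every 0 h library and overlapped WT at 1 h. The interaction was 1.14 ± 0.29 (adjusted p = 0.00488). TPS3 gave 0.98 ± 0.21 (adjusted p = 0.00119), the phosphatase TPS2 0.96 ± 0.25 (adjusted p = 0.00565), and the synthase TPS1, named after its value was seen, 0.88 ± 0.22 (adjusted p = 0.00443). The count was 4 with any 1 library left out.

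Of 13 glycogen genes 8 were called positive and none negative, with a median of 0.55. GSY2 (YLR258W), the main glycogen synthase, fell in WT from 1583, 1230 and 1815 CPM to 913, 1112 and 1200 CPM and rose in C719A from 557, 746 and 585 CPM to 1169, 1479 and 1150 CPM. Its interaction was 1.53 ± 0.25 (adjusted p = 0.000143). GPH1, the phosphorylase that breaks glycogen down, moved the same way, from 610, 606 and 944 to 309, 452 and 469 CPM in WT and from 317, 397 and 330 to 454, 620 and 454 CPM in C719A, with an interaction of 1.36 ± 0.27 (adjusted p = 0.000685). Genes for synthesis and for breakdown were thus both among the 8. GSY1, the second synthase, gave 1.20 ± 0.25 (adjusted p = 0.000929).

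Of 38 general stress genes 11 were called positive and none negative, with a median of 0.45. The list rose in both strains, by a median of 0.88 in WT, with 24 called rises, and by 1.19 in C719A, with 33. PGM2, phosphoglucomutase, fell in WT from 1885, 1755 and 2292 to 973, 1319 and 1586 CPM and rose in C719A from 777, 1082 and 785 to 1216, 1873 and 1296 CPM, an interaction of 1.34 ± 0.30 (adjusted p = 0.00185). GAD1, glutamate decarboxylase, was at a mean of 729 CPM at 0 h and 749 CPM at 1 h in WT and rose from 392 to 516 CPM to 863 to 1359 CPM in C719A, an interaction of 1.23 ± 0.27 (adjusted p = 0.00154). CTT1, the cytosolic catalase, gave 1.18 ± 0.44 (adjusted p = 0.0401), but 0.84 (adjusted p = 0.127) without WT 0 h replicate B. Its call held in only 5 of the 12 fits that left out 1 library, being lost without C719A 0 h replicate A or C, C719A 1 h replicate B, WT 0 h replicate B or C, or WT 1 h replicate A or B.

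HSP12, a membrane stress protein and a common reporter of Msn2 and Msn4, varied widely among the WT libraries at 0 h. It was at 160, 2241 and 605 CPM in WT at 0 h, 3576, 4646 and 5803 CPM in WT at 1 h, 1281, 2163 and 1203 CPM in C719A at 0 h and 5763, 7768 and 6372 CPM at 1 h. Its interaction was -0.12 (adjusted p = 0.91), and -1.51 (adjusted p = 0.0192) without WT 0 h replicate B. The stress element AGGGG, or CCCCT on the other strand, stood before 57.9% of the general stress genes and 57.1% of the trehalose genes, against 19.0% of all genes with a window. Of all 1110 genes with it, 26.2% were called positive and 11.7% negative.

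Among the regulators HSF1 was called and MSN2, MSN4 and RPN4 were not. HSF1 was at 154, 111 and 159 CPM in WT at 0 h and 129, 132 and 137 CPM at 1 h, and rose from 100, 109 and 106 to 143, 154 and 138 CPM in C719A, an interaction of 0.55 ± 0.13 (adjusted p = 0.00278). MSN2 rose in both strains, by 0.44 in WT and 0.42 in C719A, and its interaction was -0.03 (adjusted p = 0.925), with a sign that depended on which library was left out (up to 0.12). For MSN4 it was 0.16 (adjusted p = 0.539) and for RPN4, which drives proteasome genes, 0.17 (adjusted p = 0.491). SLT2, the kinase of the cell wall integrity pathway, rose from 150 to 165 CPM to 213 to 239 CPM in WT and from 126 to 143 CPM to 286 to 320 CPM in C719A, an interaction of 0.64 ± 0.11 (adjusted p = 0.000159).

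**Figure D3:**
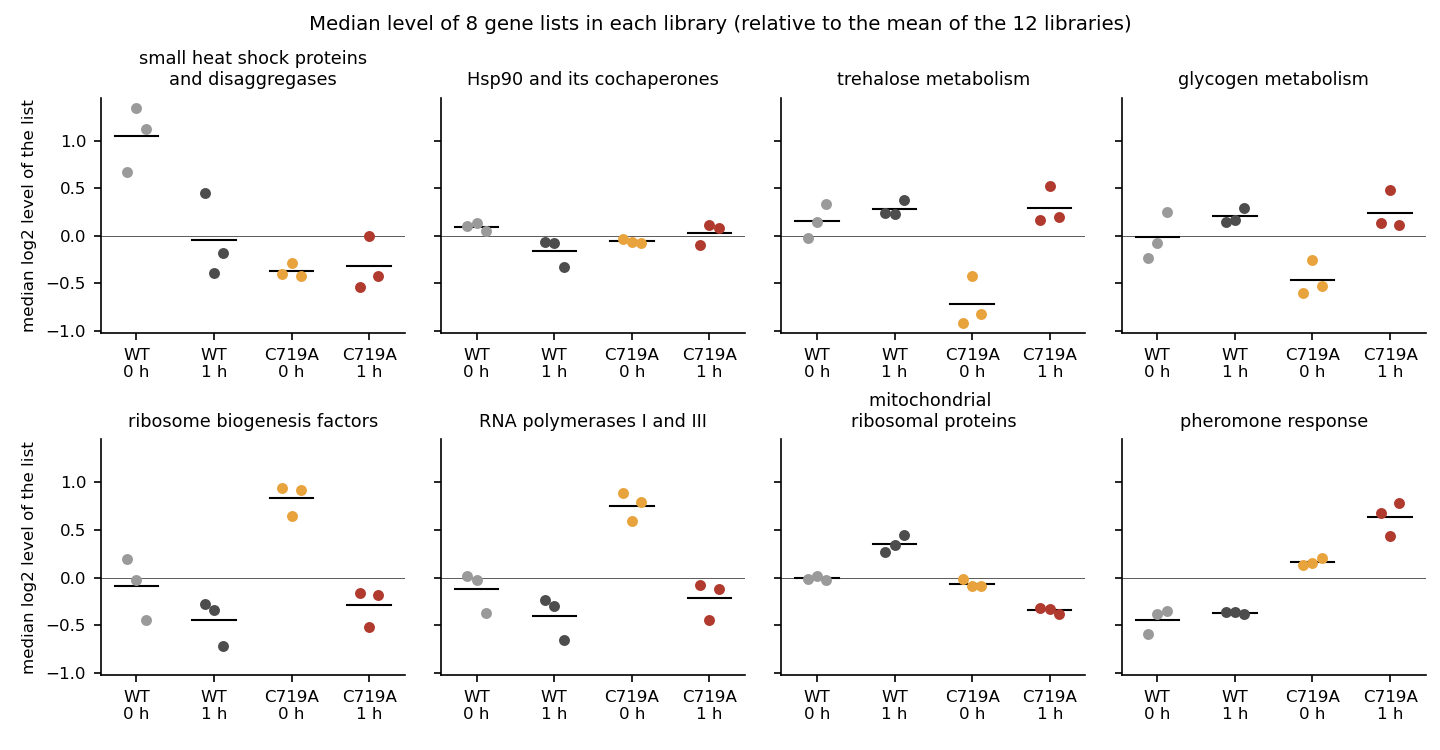
Median log2 level of 8 gene lists (y axis, each gene relative to its mean over the 12 libraries) in each library of the 4 groups, with 1 point per library, replicates A to C from left to right, and a bar at the group mean. The small heat shock list is highest in the WT libraries at 0 h, at 0.67 to 1.34, with WT 1 h replicate A next at 0.45. Ribosome biogenesis is high only in the C719A libraries at 0 h, and the mitochondrial ribosomal list separates the strains at 1 h but not at 0 h.

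Genes for building ribosomes fell more in C719A, where they were higher at 0 h. Of 149 ribosome biogenesis factors 113 were called negative (75.8%, against 16.2% of all genes) and none positive, with a median interaction of -0.76. In WT 64 of them fell and 9 rose, with a median of -0.35. In C719A 147 fell and none rose, with a median of -1.10. The list's median was 0.87 higher in C719A at 0 h, with 137 genes called higher, and 0.17 higher at 1 h, with 19. By library the list's median level was 0.20, -0.02 and -0.44 in WT at 0 h, -0.28, -0.34 and -0.72 in WT at 1 h, 0.94, 0.65 and 0.92 in C719A at 0 h and -0.16, -0.52 and -0.18 in C719A at 1 h.

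The 0 h libraries of C719A were high and all 9 others overlapped. The count was 77 without WT 0 h replicate C, the lowest, 78 without C719A 1 h replicate B and 107 without WT 0 h replicate B.

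The PAC element, GATGAG or CTCATC on the other strand, is shown in capitals because it marks yeast ribosome biogenesis promoters. It was added after values had been seen, as was the RRPE element AAAAATTTT. RPA12, described below, held no PAC match in the 250 bases before the coding start and is not shown.
NSR1, chrVII:807811-807870, minus strand: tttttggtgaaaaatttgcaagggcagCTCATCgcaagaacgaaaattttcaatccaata
RRS1, chrXV:868191-868250, plus strand: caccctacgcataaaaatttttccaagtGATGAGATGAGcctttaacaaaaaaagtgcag
ALB1, chrX:189564-189623, plus strand: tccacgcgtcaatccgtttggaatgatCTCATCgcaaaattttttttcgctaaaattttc

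PAC was found in the 250 bases before 87.9% of the biogenesis genes and 85.0% of the polymerase I and III genes, against 16.5% of all genes, and RRPE before 64.4% of the biogenesis genes, against 6.88%. Outside these lists, 104 genes held PAC and RRPE together, and 38 of them (36.5%) were called negative and 6 (5.77%) positive, with a median of -0.33. Of the 4656 other genes with neither, 13.8% were called negative and 18.6% positive. Whether either element took part was not tested.

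RRS1 (YOR294W), needed to assemble the large subunit, was at 57.0, 67.5 and 34.9 CPM in WT at 0 h and 55.3, 65.3 and 38.2 CPM at 1 h. In C719A it fell from 176, 113 and 147 CPM to 55.0, 36.2 and 55.6 CPM. No change was called in WT, and the interaction was -1.57 ± 0.32 (adjusted p = 0.000924). NSR1, the yeast nucleolin, fell from 850, 614 and 770 to 209, 135 and 208 CPM in C719A and was at 367, 383 and 153 CPM, then 230, 234 and 169 CPM, in WT, an interaction of -1.50 ± 0.37 (adjusted p = 0.00365). ALB1, a factor of the late large subunit, gave -1.49 ± 0.33 (adjusted p = 0.00156).

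The polymerases that transcribe ribosomal RNA and tRNA genes followed. Of 20 subunits and factors of RNA polymerases I and III 11 were called negative and none positive, with a median of -0.59. RPA12, a polymerase I subunit, was at 24.5, 28.5 and 18.7 CPM in WT at 0 h and 33.1, 31.8 and 25.2 CPM at 1 h, and fell from 68.7, 49.7 and 62.8 to 27.3, 24.3 and 33.5 CPM in C719A, an interaction of -1.42 ± 0.23 (adjusted p = 0.000127). RPA190, the largest polymerase I subunit, gave -0.97 ± 0.29 (adjusted p = 0.0125). The count was 5 without WT 0 h replicate C, 6 without C719A 1 h replicate B and 7 without WT 1 h replicate A.

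Ribosomal protein genes were also higher in C719A at 0 h, but few of them had a called interaction. Their median was 0.54 higher in C719A at 0 h, with 108 genes called higher, and 0.39 higher at 1 h, with 46. Of 137 cytosolic ribosomal protein genes 3 were called negative and none positive, with a median of -0.14. They fell in both strains, by a median of 1.25 in WT, with 132 called, and 1.39 in C719A, with 131. The 3 were RPS9A, RPL18B and RPL22B, each one of a pair of near-identical genes, with interactions of -0.67, -0.62 and -0.56, the last called in only 6 of the 12 fits that left out 1 library. The count was 6 without WT 0 h replicate B and 5 without WT 1 h replicate C.

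Of 27 translation factors 11 were called negative and none positive, with a median of -0.34. NIP1, a subunit of initiation factor eIF3, was at 166 to 207 CPM in WT at both times and fell from 194, 178 and 205 to 136, 124 and 124 CPM in C719A, an interaction of -0.65 ± 0.12 (adjusted p = 0.000471). TIF5, the initiation factor eIF5, gave -0.62 ± 0.16 (adjusted p = 0.00485). The count was 6 without WT 0 h replicate C or without C719A 1 h replicate B, 7 without C719A 0 h replicate C or without WT 1 h replicate A, and 4 with the 12 libraries alone.

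With TMM scaling most mitochondrial ribosomal protein genes rose in WT and most fell in C719A. Of 72 genes, 64 were called negative (88.9%) and none positive, with a median interaction of -0.65 and a range from -1.15 to 0.19. In WT 50 of them rose and 8 fell, with a median of 0.39. In C719A 4 rose and 40 fell, with a median of -0.25. Library size alone shifted the C719A median of all genes by 0.27, so the direction of this small change depends on scaling. The median interaction of all genes shifted by only -0.02. At 0 h 15 genes were lower and 8 higher in C719A than in WT, with a median difference of -0.02. At 1 h 68 were lower and 1 higher, with a median of -0.67.

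By library the list's median level was -0.01, 0.02 and -0.03 in WT at 0 h and 0.27, 0.34 and 0.45 at 1 h, and -0.01, -0.09 and -0.09 in C719A at 0 h and -0.32, -0.33 and -0.38 at 1 h. At 1 h the strains did not overlap, and every WT library was above every C719A library. The count was 62 to 65 with any 1 library left out.

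Sequences after the stop codon of 4 members are shown because they hold the motif TGTANATA, searched on the coding strand only and in capitals here, which the RNA-binding protein Puf3 recognises in messages for mitochondrial proteins. It too was added after values had been seen, and each window is a 28-base stretch of R64 on the gene's strand.
MRPL15, chrXII:760292-760319, plus strand: aaaatttatcTGTAAATAgtgatcgaaa
MRPL17, chrXIV:171335-171362, minus strand: gtcaatcacaTGTAAATAtcattaaatg
MRPL40, chrXVI:224134-224161, plus strand: atattcgaccTGTATATAtgaaagcata
MRPL11, chrIV:99268-99295, plus strand: tattcaatcaTGTACATAcatcatcaaa

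A match within 200 bases after the stop codon was found for 98.6% of the 72 genes and 14.3% of all genes. Among genes that are not mitochondrial ribosomal, 228 of the 765 with a match were called negative (29.8%) and 96 positive (12.5%), with a median of -0.14. Of the 4994 without, 14.5% were called negative and 17.3% positive, with a median of 0.02. Whether Puf3 took part was not tested.

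MRPL15 (YLR312W-A) was at 50.4, 53.3 and 47.9 CPM in WT at 0 h and 96.2, 88.2 and 97.9 CPM at 1 h. In C719A it was at 53.2, 58.3 and 60.3 CPM at 0 h and 47.8, 47.4 and 50.4 CPM at 1 h. The WT libraries at 1 h were the high ones, and the interaction was -1.14 ± 0.11 (adjusted p = 3.09e-07). MRPL17 rose from 60.9, 63.1 and 53.2 to 81.7, 82.8 and 91.9 CPM in WT and fell from 71.3, 66.9 and 80.6 to 49.2, 49.4 and 43.8 CPM in C719A, an interaction of -1.15 ± 0.12 (adjusted p = 5.96e-07). MRPL40 gave -1.10 ± 0.15 (adjusted p = 1.81e-05). All 3 encode proteins of the large mitochondrial subunit. MRP20 was the single member with a positive value, at 0.19 (adjusted p = 0.386), and it was called without WT 0 h replicate B, at 0.37 (adjusted p = 0.0115).

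**Figure D4:**
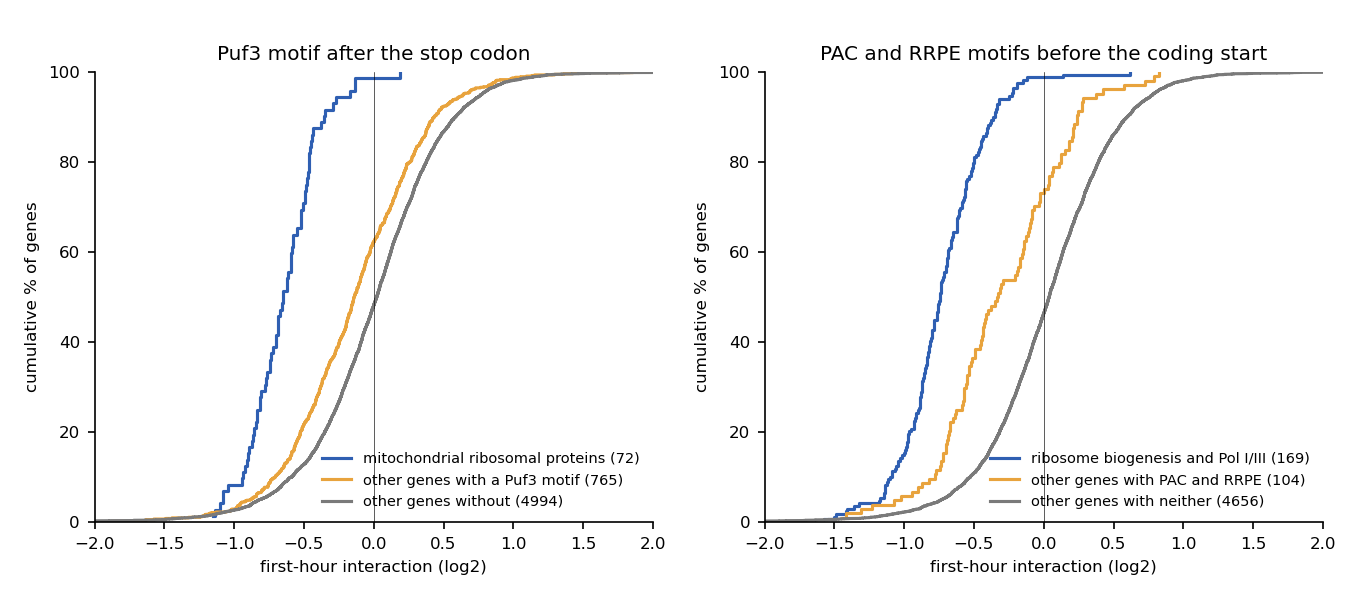
Cumulative share of genes (y axis, %) by first-hour interaction (x axis, log2), on the left for mitochondrial ribosomal proteins and other genes with and without a Puf3 motif after the stop codon, and on the right for ribosome biogenesis and polymerase genes and other genes with PAC and RRPE or neither. The lists lie farthest to the left, other genes with the motifs between, at medians of -0.14 and -0.33, and genes without them near 0.

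Amino acid genes divided by pathway. GCN4, the activator of amino acid synthesis, fell in both strains, from 789, 836 and 580 to 453, 488 and 389 CPM in WT and from 1305, 1152 and 1313 to 600, 474 and 596 CPM in C719A. Its interaction of -0.45 was not called (adjusted p = 0.0931), but was -0.55 (adjusted p = 0.0371) without WT 0 h replicate B. Of 18 genes that control GCN4 translation 8 were called negative and none positive, with a median of -0.34. They were subunits of initiation factors eIF2 and eIF2B and the tRNA methyltransferase gene GCD14, among them SUI2 at -0.72 ± 0.15 (adjusted p = 0.000794), GCD14 at -0.72 ± 0.17 (adjusted p = 0.0032) and SUI3 at -0.68 ± 0.15 (adjusted p = 0.00159).

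Arginine genes were higher in C719A than in WT at 0 h in 8 of 8 cases, and 3 were called negative. ARG3, ornithine carbamoyltransferase, rose in WT from 11.5, 12.5 and 13.1 to 50.9, 22.4 and 36.2 CPM, while C719A was at 181, 190 and 172 CPM and then at 224, 182 and 244 CPM. The interaction was -1.30 ± 0.29 (adjusted p = 0.00175). CPA1, of the first step of arginine synthesis, gave -1.05 ± 0.19 (adjusted p = 0.000328). In the branched-chain pathway 4 of 10 genes were called negative and 1 positive, led by ILV5 at -1.08 ± 0.17 (adjusted p = 9.03e-05), which rose in WT from 336 to 396 CPM to 416 to 582 CPM and fell in C719A from 527 to 669 CPM to 358 to 407 CPM.

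Of 19 genes of other amino acid pathways 6 were called negative and 1 positive, with a median of -0.14. SHM2, cytosolic serine hydroxymethyltransferase, rose in WT from 139, 121 and 150 to 456, 549 and 370 CPM and was at 202, 190 and 216, then 265, 218 and 176 CPM, in C719A. The interaction was -1.63 ± 0.38 (adjusted p = 0.00283). SER3, of serine synthesis, rose in WT from 134, 140 and 162 to 222, 173 and 216 CPM and fell in C719A from 154, 112 and 138 to 58.5, 83.8 and 61.1 CPM, an interaction of -1.47 ± 0.18 (adjusted p = 7.26e-06). Of 27 sulfate and methionine genes 4 were called negative and 3 positive (1 without C719A 0 h replicate C), with a median of -0.05. The shares were 14.8% and 11.1%, against 16.2% and 15.3% of all genes. MET6, methionine synthase, gave -1.44 ± 0.24 (adjusted p = 0.00017), from 31.0 to 57.1 CPM to 126 to 137 CPM in WT and 218 to 323 CPM, then 232 to 325 CPM, in C719A.

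Of 9 lysine genes tested 3 were called positive and none negative. LYS1 rose from 125, 153 and 129 to 185, 196 and 211 CPM in C719A and was at 66.0 to 87.6 CPM in WT at both times, an interaction of 0.64 ± 0.12 (adjusted p = 0.00037). Of 14 aromatic genes 6 were called positive and 1 negative, and the 6 became 3 without C719A 0 h replicate C, without C719A 1 h replicate C or with the 12 libraries alone. Of 20 synthetase genes 3 were called negative (1 without C719A 0 h replicate A, C719A 1 h replicate B, WT 0 h replicate C or WT 1 h replicate B, and 5 without WT 1 h replicate C) and 1, the aspartyl enzyme gene DPS1, positive at 0.51 ± 0.15 (adjusted p = 0.0111). The 3 are 15.0% of the list, close to the 16.2% of all genes called negative. The Gcn4 motif TGACTC, or GAGTCA on the other strand, stood before 50.0% of arginine genes, 57.9% of the other amino acid genes and 50.0% of lysine genes, against 6.31% of all genes, and the arginine and lysine lists had medians of -0.14 and 0.23.

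In carbon metabolism the citrate cycle held calls of both signs. Of 18 genes 8 were called positive (44.4%, against 15.3% of all genes). Another 3 were called negative (16.7%, close to the 16.2% of all genes). The 3 were IDH1 and IDH2, the subunits of NAD-dependent isocitrate dehydrogenase, and the aconitase gene ACO1, which was called in only 5 of the 12 fits that left out 1 library. IDH2 rose in WT from 233, 206 and 252 to 333, 324 and 359 CPM and fell in C719A from 367, 381 and 422 to 231, 220 and 213 CPM, an interaction of -1.37 ± 0.21 (adjusted p = 6.96e-05). IDH1 gave -0.96 ± 0.18 (adjusted p = 0.000436). MDH1, mitochondrial malate dehydrogenase, was the most positive at 0.87 ± 0.18 (adjusted p = 0.00112), at 237 to 351 CPM and then 219 to 256 CPM in WT, and 133 to 157 CPM and then 197 to 263 CPM in C719A.

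Of 18 glyoxylate and gluconeogenesis genes 7 were called negative and none positive, but 2 to 4 without any of C719A 0 h replicate B, the 3 C719A 1 h libraries, WT 0 h replicate A, WT 0 h replicate C or WT 1 h replicate C, and 1 with the 12 libraries alone. MDH2, cytosolic malate dehydrogenase, was called in each of the 12 fits. It rose in WT from 235, 498 and 259 to 969, 885 and 982 CPM and in C719A from 508, 722 and 580 to 872, 990 and 837 CPM, an interaction of -0.94 ± 0.27 (adjusted p = 0.0114). The strains overlapped at 1 h.

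Of 20 hexose transporters and glucose sensors 5 were called negative, 3 with the 12 libraries alone, and 3 positive. The 3 positive are 15.0% of the list, close to the 15.3% of all genes. The negative share was above the 16.2% of all genes, but it rests on 5 genes and was lower with the 12 libraries alone. MIG2, a repressor of glucose-repressed genes, rose in WT from 172, 166 and 156 to 487, 251 and 301 CPM and was at 158 to 189 CPM in C719A at both times, an interaction of -1.17 ± 0.26 (adjusted p = 0.00152). HXT6, a high-affinity transporter, fell in both strains, from 151, 134 and 212 to 17.2, 14.3 and 17.1 CPM in C719A and from 53.3 to 56.9 CPM to 16.2 to 18.7 CPM in WT, an interaction of -1.72 ± 0.20 (adjusted p = 4.6e-06). HXT6 and HXT7 are near-identical, so how reads were divided between them is uncertain. HXT7 gave -1.01 ± 0.30 (adjusted p = 0.0127), and -1.46 without WT 0 h replicate B.

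Of 30 mating pheromone genes 19 rose and 5 fell in C719A, and 11 rose and 7 fell in WT. Over all genes 33.9% rose in C719A and 30.8% in WT. In the interaction 13 were called positive and 2 negative, with a median interaction of 0.47. Their median response was 0.10 in WT and 0.70 in C719A, and the list was already higher in C719A at 0 h, by a median of 0.61. Promoters of members with a match are shown for the pheromone response element, TGAAACA or TGTTTCA on the other strand, which the factor Ste12 binds. MFA1, described below, held no match in the 250 bases before the coding start and is not shown.
KAR4, chrIII:27780-27839, plus strand: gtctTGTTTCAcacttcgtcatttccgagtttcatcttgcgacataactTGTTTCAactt
PRM1, chrXIV:110720-110779, plus strand: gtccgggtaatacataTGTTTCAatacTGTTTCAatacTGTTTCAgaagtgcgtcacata
FUS1, chrIII:71603-71662, plus strand: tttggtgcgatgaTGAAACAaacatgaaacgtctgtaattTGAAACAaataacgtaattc

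The element stood before 56.7% of the pheromone genes, against 5.92% of all genes. KAR4 (YCL055W), a regulator of nuclear fusion genes in mating, was at 28.7, 25.9 and 22.8 CPM in WT at 0 h and 26.2, 24.9 and 27.3 CPM at 1 h. In C719A it rose from 70.6, 71.9 and 76.6 to 257, 209 and 296 CPM. The strains did not overlap at either time, and the interaction was 1.78 ± 0.16 (adjusted p = 2.9e-07). PRM1, which acts in membrane fusion of mating cells, rose from 61.9, 70.4 and 68.8 to 336, 200 and 326 CPM in C719A and was at 19.6 to 30.4 CPM in WT at both times, an interaction of 1.76 ± 0.22 (adjusted p = 7.63e-06). MFA1, an a-factor gene, rose from 12.1, 11.2 and 10.2 to 35.6, 30.2 and 43.2 CPM in C719A and was at 2.96 to 3.84 CPM in WT, an interaction of 1.62 ± 0.30 (adjusted p = 0.000348). The agglutinin gene AGA1, named after its value was seen, gave 1.05 (adjusted p = 5.86e-05), and FUS1, which acts in cell fusion, 0.77 (adjusted p = 0.023), or 0.51 (adjusted p = 0.0987) without WT 0 h replicate B and 0.65 to 0.67 with the call lost without C719A 1 h replicate A or C. MF(ALPHA)1 fell in both strains, with an interaction of -0.18 (adjusted p = 0.587).

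Cell surface genes followed in part. CTS1, the chitinase that separates daughter cells, rose in both strains, from 621, 340 and 743 to 1393, 1106 and 1461 CPM in WT and from 208, 211 and 205 to 1723, 1637 and 1611 CPM in C719A. Its interaction was 1.78 ± 0.26 (adjusted p = 3.71e-05). Of 32 cell wall genes 10 were called positive and 2 negative, with YPS1, a surface protease, at 1.00 ± 0.18 (adjusted p = 0.000268) and the chitin synthase CHS1 at 0.97 ± 0.19 (adjusted p = 0.000558). TIP1, a cold- and heat-responsive wall protein, fell more in C719A, from 1796, 1391 and 1851 to 224, 179 and 238 CPM against 400, 517 and 359 to 130, 129 and 119 CPM in WT, an interaction of -1.22 ± 0.21 (adjusted p = 0.000241).

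Among 9 anaerobic wall genes of the TIR, DAN and PAU families 6 were called positive and none negative, 3 without WT 0 h replicate C. TIR3 fell from 78.9, 49.7 and 76.7 to 17.1, 13.7 and 16.6 CPM in WT and from 30.1, 27.9 and 26.6 to 16.8, 10.9 and 15.3 CPM in C719A, an interaction of 1.13 ± 0.23 (adjusted p = 0.000968). PAU genes share sequence, so reads between their copies are uncertain.

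Genes of lipid synthesis and nutrient uptake had interactions of both signs. Of 29 iron and copper uptake genes 6 were called positive (20.7%) and 5 negative (17.2%), with a median of 0.06. Of 23 phosphate genes 4 were called positive (17.4%) and 5 negative (21.7%), with a median of 0.14. These shares are not far from the 15.3% and 16.2% of all genes. The phosphate counts were 7 positive without WT 0 h replicate B, 3 negative without C719A 0 h replicate A, C719A 1 h replicate B or WT 0 h replicate C, and 2 negative with the 12 libraries alone. OLE1 (YGL055W), the only fatty acid desaturase of yeast, rose in WT from 170, 157 and 191 to 743, 454 and 397 CPM and fell in C719A from 264, 199 and 246 to 159, 142 and 168 CPM. The strains did not overlap at either time, with C719A higher at 0 h and lower at 1 h. The interaction was -2.22 ± 0.26 (adjusted p = 3.39e-06). INO1, which makes inositol phosphate, rose in WT from 56.5, 107 and 81.2 to 120, 129 and 135 CPM and fell in C719A from 244, 157 and 542 to 107, 123 and 113 CPM. Its interaction was -2.11 ± 0.38 (adjusted p = 0.000283), and -2.43 to -1.46 with 1 library left out. CTR1, the copper importer, rose from 68.6, 72.4 and 61.2 to 79.5, 120 and 144 CPM in WT and fell from 54.3, 50.6 and 69.4 to 28.2, 27.2 and 25.6 CPM in C719A, an interaction of -1.87 ± 0.24 (adjusted p = 9.77e-06).

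FRE1, the main surface reductase for iron and copper, fell from 93.1, 79.8 and 96.6 to 44.6, 40.3 and 45.3 CPM in C719A and was at 97.1 to 123 CPM in WT at both times, an interaction of -1.16 ± 0.12 (adjusted p = 4.21e-07). PHO89, a phosphate importer, rose in WT from 18.3, 52.5 and 39.0 to 318, 131 and 296 CPM and in C719A from 16.6, 21.9 and 19.9 to 46.2, 42.4 and 47.8 CPM, an interaction of -1.55 ± 0.42 (adjusted p = 0.00732). URA1, of pyrimidine synthesis, rose in WT from 288, 735 and 309 to 879, 878 and 868 CPM and fell in C719A from 1867, 2026 and 2041 to 1394, 1439 and 1327 CPM. Its interaction was -1.49 ± 0.30 (adjusted p = 0.000694), and -2.07 without WT 0 h replicate B, the high WT library at 0 h.

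Histone genes were called negative in 4 of 10 cases, 2 without WT 1 h replicate B, and none were positive. HTB1, a gene for histone H2B, rose in WT from 314, 428 and 270 to 401, 523 and 433 CPM and fell in C719A from 514, 411 and 534 to 376, 314 and 374 CPM, an interaction of -0.88 ± 0.20 (adjusted p = 0.00215). Histone gene pairs are near-identical in their coding parts.

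**Figure D5:**
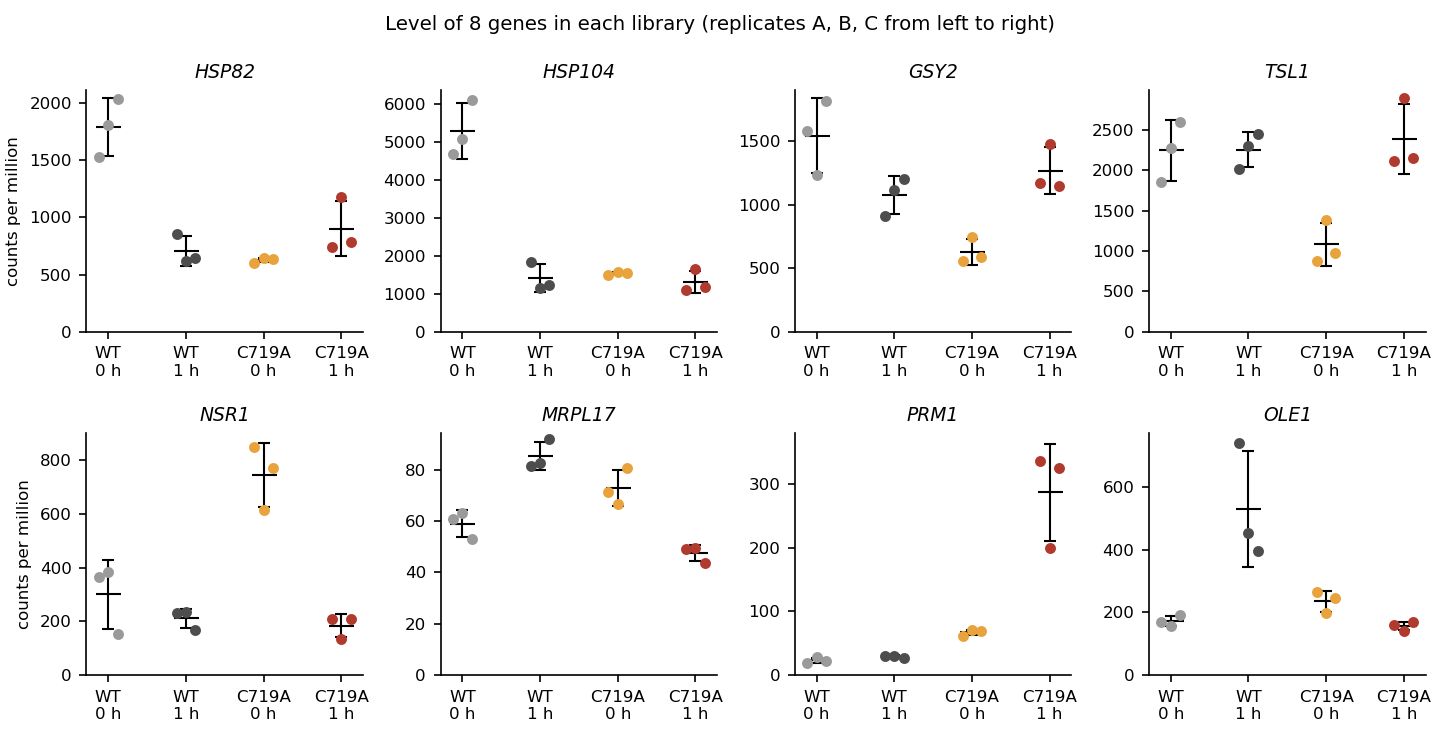
CPM (y axis, from 0) of 8 genes in each library of the 4 groups, with 1 point per library and the mean with 1 SD of 3 libraries. HSP104 is high only in WT at 0 h, NSR1 only in C719A at 0 h, PRM1 only in C719A at 1 h and OLE1 only in WT at 1 h, while MRPL17 rises in WT and falls in C719A.

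The second comparison asked which of these differences also separated C719A from the G906D strain in the first hour. Its contrast used the C719A libraries again and no WT library, though the fit was over all 27 libraries. It shares those C719A libraries with the interaction above, so each value is given on its own. Of 6386 genes 1621 were called (25.4%), 707 with a higher response in C719A (11.1%) and 914 with a lower one (14.3%). In this comparison higher and lower refer to the log2 change from 0 h to 1 h, not to levels. With library size alone the median over all genes shifted by -0.23 and 10.4% of calls were higher, against 43.6% with TMM, so counts by direction here depend on scaling.

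The small heat shock list had a median difference of 1.06, with 4 genes called higher and 1 lower. HSP104 fell in G906D from a mean of 3175 CPM to 702 CPM, and its response was higher in C719A by 1.94 (adjusted p = 8.13e-06). That of HSP82 was higher by 1.31 (adjusted p = 9.64e-05) and that of SSA1 by 0.98 (adjusted p = 0.000907). HSP26 and HSP12 had the opposite sign, at -2.04 (adjusted p = 1.77e-05) and -2.29 (adjusted p = 0.0163). In G906D HSP26 went from a mean of 131 to 1885 CPM.

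The response of mitochondrial ribosomal protein genes was called lower in C719A than in G906D for 37 of 72, with none higher and a median of -0.38. Responses of ribosome biogenesis genes were called lower for 6 of 149 and higher for none, with a median of -0.19. That median is smaller in size than the shift that scaling gives. Responses of pheromone genes were called higher for 15 of 30 and lower for 2, with KAR4 at 1.28 (adjusted p = 6.85e-06) and MFA1 at 1.79 (adjusted p = 5.52e-05).

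The trehalose list had a median of 0.02, with none called higher and 1 lower, and TSL1 differed by 0.02 (adjusted p = 0.976). OLE1 differed by 0.11 (adjusted p = 0.799), and in G906D it went from a mean of 452 to 277 CPM. The responses of INO1 and CTR1 were lower in C719A, at -2.58 (adjusted p = 4.88e-05) and -1.28 (adjusted p = 0.000453).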

How the data were processed

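Total RNA from 27 cultures was poly(A)-selected and sequenced on Illumina instruments. The submitters' processing notes name TopHat2 and Bowtie2, and their versions, the counting tool and the genome build are not given in the sources used here. The deposited counts are whole-number reads per gene for 7122 gene IDs, unnormalized, and the authors also deposited FPKM values, which were used for alternatives and to compare levels of markers. Counts carried no coordinates. Names and sequences came from RefSeq R64, which 6045 IDs matched, 5278 with a symbol. Gene lengths implied by the counts and FPKM equalled R64 coding lengths for 91.8% of 5324 genes.

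Counts were fitted with edgeR 4.0.16 (TMM, filterByExpr over 9 groups, quasi-likelihood test, R 4.3.3) over all 27 libraries with 1 mean per group, leaving 6386 genes, and p-values were adjusted by Benjamini-Hochberg at 0.05. Depth was 14718035 to 23057641 counts. Data were simulated for the interaction with 6386 genes, of which only 66 were changed by 0.5 (log2), 67 by 1 and 67 by 2. Recovery was 36.4%, 83.6% and 100%, and 3.92% of 153 calls were false. In the real data 31.5% of genes were called, so these shares need not carry over. The study's text calls the replicates biological, and p-values measure the spread between these libraries.

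Named genes were the 10 largest interactions of each sign with mean log2 CPM of at least 5 that were called in every fit leaving out 1 library, up to 3 called genes per list with mean log2 CPM of at least 4, a fixed set (ALA1, LEU2, GCN4, HSF1, MSN2, MSN4, HSP104, HSP12, SSA4, HSP26, RPN4) and the 5 largest of each sign with opposite responses. TPS1, FUS1, AGA1, MF(ALPHA)1, HSP31, BTN2, CUR1, SSE1, MGE1, SIL1, ACO1, MRP20 and MRPL11 were named after their values were seen. The members and the 44 lists were chosen with earlier results of these data known. Alternatives were DESeq2 1.42.0, limma-trend 3.58.1 on log2(FPKM + 0.1 or 1), library size alone, RLE factors, TMM without ribosomal protein genes, filters of 10 counts and of 1 count, the 12 libraries alone, a replicate block, a 2-fold minimum and leaving out each library.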

Additional observations from a re-analysis of the deposited data

Results flagged for a closer look

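The interaction is itself a test of whether 2 strains differ in response, so its 2012 called genes are listed here as a whole. Kept from them were protein-coding genes with a symbol, mean log2 CPM of at least 5 and calls in every fit leaving out 1 library. Of the genes kept, 174 had called responses of opposite direction with TMM scaling, 83 rising in C719A and 91 rising in WT. Library size alone shifted the median response of all genes by 0.29 in WT and 0.27 in C719A. The direction of small responses therefore depends on scaling. Of the 174, the 5 with the largest interactions of each sign follow. Rising in C719A and falling in WT were HSP82 at 1.86, GSY2 at 1.53, GPH1 at 1.36, PGM2 at 1.34 and YSC84, which binds actin, at 1.25. YSC84 was at 270, 197 and 331 CPM in WT at 0 h, 169, 197 and 240 CPM at 1 h, 102, 116 and 96.2 CPM in C719A at 0 h and 161, 234 and 172 CPM at 1 h.

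Falling in C719A and rising in WT were OLE1 at -2.22, INO1 at -2.11, CTR1 at -1.87, URA1 at -1.49 and SER3 at -1.47. For the 5 rising genes, C719A libraries at 0 h were below every WT library at 0 h, and the cause was not tested for any of the 10.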

How the results depend on the processing

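Under 23 alternative settings, 102 of 152 named genes kept their direction and side of the threshold throughout. Over genes and settings 3252 results stayed on their side of the threshold, 234 lost the call and 10 gained it. No called value changed sign, but in 10 cases an uncalled value of MSN2, HSP31 or HSP12 did. With 1 library left out, differing genes numbered 1473 to 2432, positive 661 to 1183, negative 810 to 1249. Other alternatives gave 1411 (12 libraries alone, 6301 genes) to 2154 (DESeq2), with 640 negative in the 12 libraries alone. A 2-fold minimum left 244, of which 103 positive and 141 negative. At an unadjusted p under 0.05 there were 2662.

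Calls of the strains' own responses depended on scaling. Rises in WT numbered 3154 with library size alone and 3168 and 3177 with limma-trend on log2(FPKM + 0.1) and log2(FPKM + 1), and falls 1072, 1036 and 1048. Falls in C719A numbered 1316, 1331 and 1339. Against G906D the genes with a higher response in C719A numbered 223, 222 and 229 and those with a lower one 1913, 1867 and 1853.

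Same-letter libraries of a strain correlated at 0.03 to 0.21 between 0 h and 1 h, with 4 of 6 over 0.1, so letters were not taken as pairs. A replicate block within each strain gave 1952 differing genes and a block over all strains 1956, against 2012 without a block. With 3 libraries per group, changes of 0.5 (log2) were mostly missed in simulation. Far fewer genes were changed there than were called in the data, so the share missed here is not known.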

Other observations

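Some lists that the report does not describe held calls of both signs. Of 25 ergosterol genes 7 were called positive and 1 negative, with ERG9, squalene synthase, at 0.85 ± 0.14 (adjusted p = 0.000159), falling in WT from 273, 243 and 309 to 205, 195 and 220 CPM and rising in C719A from 152, 141 and 149 to 171, 234 and 194 CPM. The count was 2 without C719A 0 h replicate B, 3 without C719A 1 h replicate A or WT 1 h replicate C, and 4 without WT 0 h replicate A, without C719A 1 h replicate C or with the 12 libraries alone. Of 28 antioxidant genes 5 were called positive (17.9%) and 3 negative (10.7%), against 15.3% and 16.2% of all genes. The negative count was 1 without C719A 0 h replicate B, C719A 1 h replicate A or WT 0 h replicate A or C. With the 12 libraries alone none was called negative. The glutathione transferase GTT1 gave 1.05 ± 0.19 (adjusted p = 0.000329) and GSH1, the first enzyme of glutathione synthesis, 0.79 ± 0.15 (adjusted p = 0.000382).

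Of 33 proteasome genes 3 were called positive (9.09%, against 15.3% of all genes) and none negative, 7 without WT 0 h replicate B and 1 without any of C719A 0 h replicate C, C719A 1 h replicate B or WT 0 h replicate C. RQC2, which tags stalled proteins on the ribosome, fell in WT from 559, 609 and 802 to 270, 271 and 274 CPM and was at 608, 387 and 401, then 392, 380 and 438 CPM, in C719A, an interaction of 1.07 ± 0.24 (adjusted p = 0.00204). GOR1, glyoxylate reductase, rose in C719A from 67.1, 82.3 and 64.7 to 206, 296 and 232 CPM and was at 103 to 199 CPM in WT at both times, an interaction of 1.80 ± 0.29 (adjusted p = 0.00012).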
